A study of Mus musculus with 6 samples.

Results

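Cyclins and cyclin-dependent kinases drive the cell cycle, and 10 genes of this family were followed in mouse thymocytes that lack Rpl22l1, which encodes a ribosomal protein closely related to Rpl22. The members were chosen by symbol: the D-type cyclins Ccnd2 and Ccnd3, the E-type cyclins Ccne1 and Ccne2, the later cyclins Ccna2, Ccnb1 and Ccnb2, and the kinases Cdk1, Cdk4 and Cdk6. All 10 were among the 34573 genes of the count table and all 10 were among the 13729 that passed the filter on low counts. RNA was sequenced from sorted double negative 3 (DN3) cells, which lack CD4, CD8 and CD44 and carry CD25, taken without culture from adult thymus (6 to 8 weeks of age; strain a mix of C57BL/6 and 129). The L1 KO group (3 libraries) was Cre-positive and homozygous for the floxed Rpl22l1 allele. The WT group (3 libraries) carried the same floxed alleles and no Cre. An effect of the Cre transgene itself therefore cannot be told apart from the loss of Rpl22l1. The series text names the transgene Vav-Cre, which is active throughout blood-forming cells, but gives Cre to the WT mice; the sample labels were followed here. The labels do not say that replicate libraries stem from different animals, and the p-values below may thus reflect technical spread alone.

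Each cyclin lends its kinase partner activity and choice of substrate. D-type cyclins act with Cdk4 and Cdk6 in G1, where they phosphorylate the retinoblastoma protein. E-type cyclins act with Cdk2 at the start of DNA replication. Cyclin A2 acts in S and G2, and B-type cyclins with Cdk1 carry cells into mitosis. In the thymus, DN3 cells that have assembled a working T cell receptor beta chain pass beta-selection and divide rapidly. Mouse knockouts tie that burst of division to Ccnd3 and to Cdk6.

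The libraries held 25657313, 28128186 and 13887672 reads counted to genes in KO 1 to 3 and 21571810, 20385508 and 19570475 in WT 1 to 3. Rpl22l1 had 18.6, 19.996 and 26.1 CPM (counts scaled to library size by TMM) in the KO libraries, against 86.3, 123 and 118 CPM in the WT libraries, so each library matched its label. All 8 DN3 markers were expressed in both groups, with means of 82.7 (Rag2) to 2007 (Notch1) CPM in KO and 109 to 1994 CPM in WT for the same genes. Of these markers 4 had an unadjusted p under 0.05, as had 23.4% of all tested genes. Their log2 fold changes were 0.82 ± 0.30 for Dtx1, 0.30 ± 0.10 for Il2ra, −0.36 ± 0.15 for Rag1 and −0.39 ± 0.14 for Rag2, with adjusted p of 0.1005 to 0.198. With the replicate number as a block 2 rose (Dtx1 and Il2ra) and 2 fell (Rag1 and Bcl11b), beside 9.96% and 10.3% of all tested genes. Cd4, Cd8a, Cd8b1 and Cd44 together summed to 6.11 to 11.05 CPM in KO and 6.44 to 8.14 CPM in WT. Within that sum Cd44, a marker of earlier DN stages, had 1.56, 3.88 and 4.54 CPM in KO 1 to 3, against 1.14, 1.90 and 1.53 CPM in WT 1 to 3 (adjusted p of 0.141, or 0.0116 with the block); KO 2 and KO 3 were above every WT library and KO 1 was not. The part of such cells in the cyclin values was not tested. KO 1 and WT 1 differed from the other libraries in a like way: deviations from the group means correlated across 13729 genes at 0.60 between KO 1 and WT 1. Between either number 1 library and the other group's numbers 2 and 3 the values were −0.33 to −0.52. Such negative values follow from the positive one by arithmetic, as deviations from a group's own mean cancel out within the group. Results that rest on these libraries are given with and without them.

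The mean levels of Ccna2, Ccnb1, Ccnb2 and Cdk1, the genes of late S phase and mitosis, were 1.31 to 1.38 times as high in KO as in WT, while the G1 members lay on both sides of WT. Ccnb1 was the 1 member that passed the threshold, an adjusted p under 0.05 in edgeR's quasi-likelihood test on group alone, and it rose 1.38-fold. Over all genes that rule called 628 of 13729, or 4.57%, with 2.14% higher and 2.43% lower in KO. When the replicate number was added as a block, 6 members rose (Ccnd3, Ccne1, Ccna2, Ccnb1, Ccnb2 and Cdk1) and 2 fell (Ccnd2 and Cdk6), against a background of 20.3% of genes called, 9.96% higher and 10.3% lower. The same 6 rose and the same 2 fell when both number 1 libraries were left out, a choice made after seeing the data. There 2881 genes passed, 1448 higher and 1433 lower. Both fits set aside the difference of the number 1 libraries from the rest, so the second is no separate check of the first. Ccne2 and Cdk4 passed in neither of these fits. Of the 10 members, 8 had an unadjusted p under 0.05, as had 23.4% of all tested genes, and 4 had groups that did not overlap, as had 28.4%. The members' median log2 fold change was 0.33, against −0.0066 over all tested genes.

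**Figure D1:**
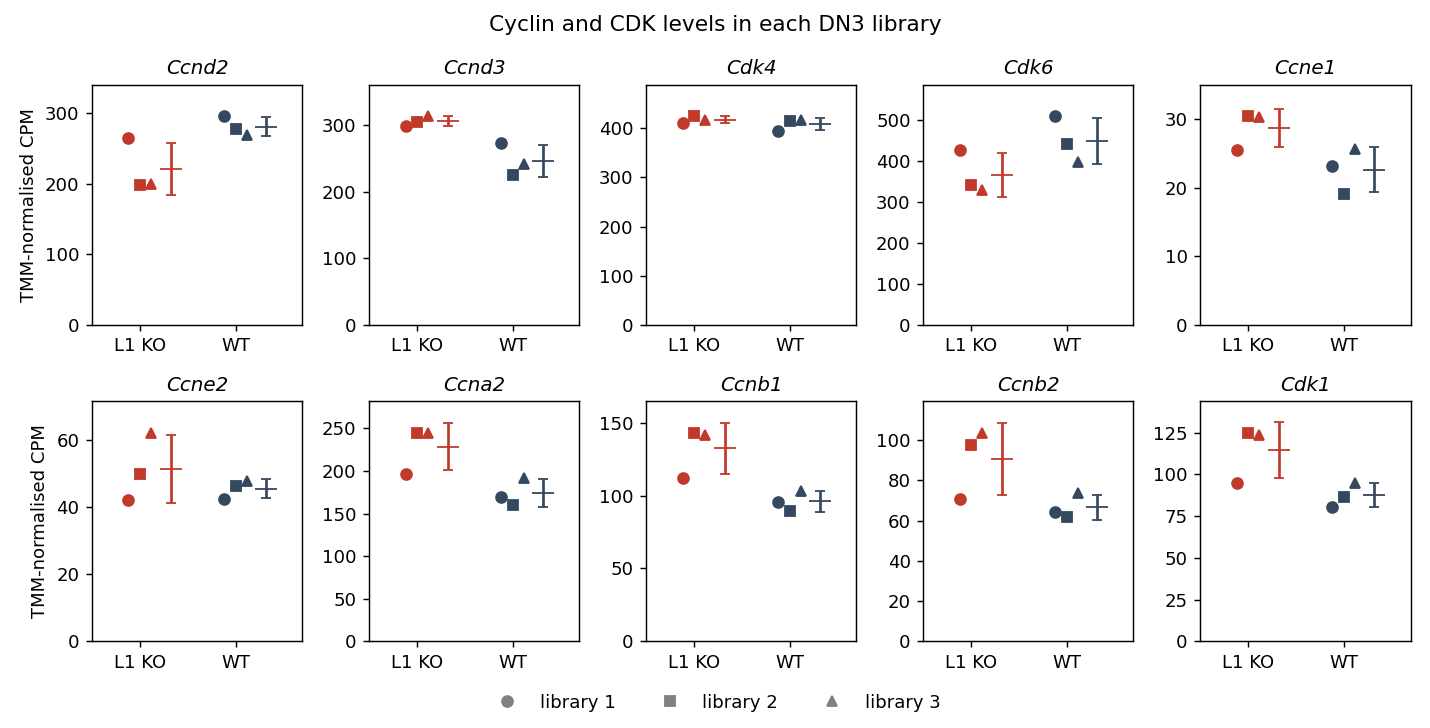
TMM-normalised CPM (vertical axes, from 0) of the 10 members in each DN3 library, L1 KO left and WT right; the marker shape gives the library number and the bar the mean ± SD of 3 libraries. Ccnd2 and Cdk6 sit lower in KO, Ccnd3, Ccna2 and Ccnb1 sit higher in all 3 KO libraries than in any WT library, and Cdk4 lies between 395 and 425 CPM throughout.

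The stretches upstream of 3 mitotic members are printed because the levels of these genes ran in parallel over the libraries and each window holds CCAAT boxes, a motif known from cell cycle genes. RefSeq windows (GRCm38.p6) of 250 bases before to 50 after the start site were at hand for 7 of the 10 members, with a pair of windows for Ccnd3; Ccnd2, Ccne2 and Ccna2 had none. In all, 3 motifs were searched on both strands. TTTGAA is a form of the cell cycle homology region, at which the DREAM and MuvB complexes act on G2/M genes. CCAAT is the box bound by NF-Y, and TTTNNCGC is an E2F-type motif. Each sequence below runs 5′ to 3′ on the gene's own (minus) strand from base −110 to base 10 around the start site, with TTTGAA and CCAAT, on either strand, in capitals. Ccnb1 lies at chr13:100786477-100786596, Ccnb2 at chr9:70421545-70421664 and Cdk1 at chr10:69352903-69353022.
Ccnb1: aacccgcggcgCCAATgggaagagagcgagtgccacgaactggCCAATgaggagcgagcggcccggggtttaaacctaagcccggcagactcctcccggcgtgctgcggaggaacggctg
Ccnb2: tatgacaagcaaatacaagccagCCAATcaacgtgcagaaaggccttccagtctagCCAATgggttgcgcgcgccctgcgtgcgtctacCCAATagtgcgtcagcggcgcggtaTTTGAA
Cdk1: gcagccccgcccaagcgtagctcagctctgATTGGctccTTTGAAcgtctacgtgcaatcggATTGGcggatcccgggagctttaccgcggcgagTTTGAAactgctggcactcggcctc

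In these windows CCAAT boxes stood 32 bases apart in Ccnb1 (first bases at −99 and −67), 33 and 33 apart in Ccnb2 (−87, −54 and −21) and 32 apart in Cdk1, where they lie on the other strand (−80 and −48). The Cdk1 window held a further box at −208, which stood 128 bases from that at −80. A pair on 1 strand spaced by 31 to 34 bases, a range set after these sequences were seen, occurred in 0.895% of all 32851 windows. TTTGAA was found at −71 and −15 in Cdk1 and at −167 and 5 in Ccnb2, and in 17.9% of all windows. The Ccnb1 window held neither TTTGAA nor the E2F-type motif, and other forms of the cell cycle homology region were not searched. At least 1 CCAAT box was in 37.4% of all windows. The E2F-type motif was found in the Cdk1 window at −131 and −29 and in the Cdk6 window at −198, and in 5.17% of all windows. Of the other windows, 1 of the Ccnd3 pair held a CCAAT box at −108, and the Cdk4 and Ccne1 windows held none of these 3 motifs. A match describes these letters and is not a shown binding site.

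The D-type cyclins differed in direction, Ccnd3 being higher and Ccnd2 lower in KO, and each passed with the block but not on group alone. Ccnd3 encodes the cyclin that mouse thymocytes need to expand at beta-selection. It had 298, 305 and 313 CPM in KO 1 to 3, against 273, 226 and 241 CPM in WT 1 to 3. Every KO library was above every WT library. The means were 306 ± 7.49 CPM in KO and 247 ± 24.1 CPM in WT (SD, n = 3 each), a log2 fold change of 0.31 ± 0.08 (SE) with an adjusted p of 0.0592, or 0.00624 with the block. Ccnd2, the second D-type cyclin of lymphocytes, had 264, 198 and 200.2 CPM in KO 1 to 3, against 296, 278 and 269 CPM in WT 1 to 3. Every KO library was below every WT library, with KO 1 closest to them. The log2 fold change was −0.35 ± 0.11, with an adjusted p of 0.106, or 0.00372 with the block. Ccnd1, the remaining D-type cyclin, was near the floor of the table at 1.93 ± 0.412 CPM in KO and 2.39 ± 0.0915 CPM in WT.

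Within a library, Ccnd3 CPM was 1.13, 1.54 and 1.56 times Ccnd2 CPM in KO 1 to 3 and 0.923, 0.813 and 0.896 times in WT 1 to 3. The ratio was above 1 in each KO library and below 1 in each WT library. On the log2 scale it was 0.48 ± 0.26 in KO and −0.19 ± 0.10 in WT (SD, n = 3 each), a difference of 0.67, with a two-sided exact permutation p of 0.1. That is the smallest p that 3 against 3 libraries can give, and adjusted over the 4 paralog ratios compared it was 0.4. Corrected for exon length, Ccnd3 made up 59.9% ± 4.44 of the Ccnd2 and Ccnd3 signal in KO and 48.4% ± 1.66 in WT.

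**Figure D2:**
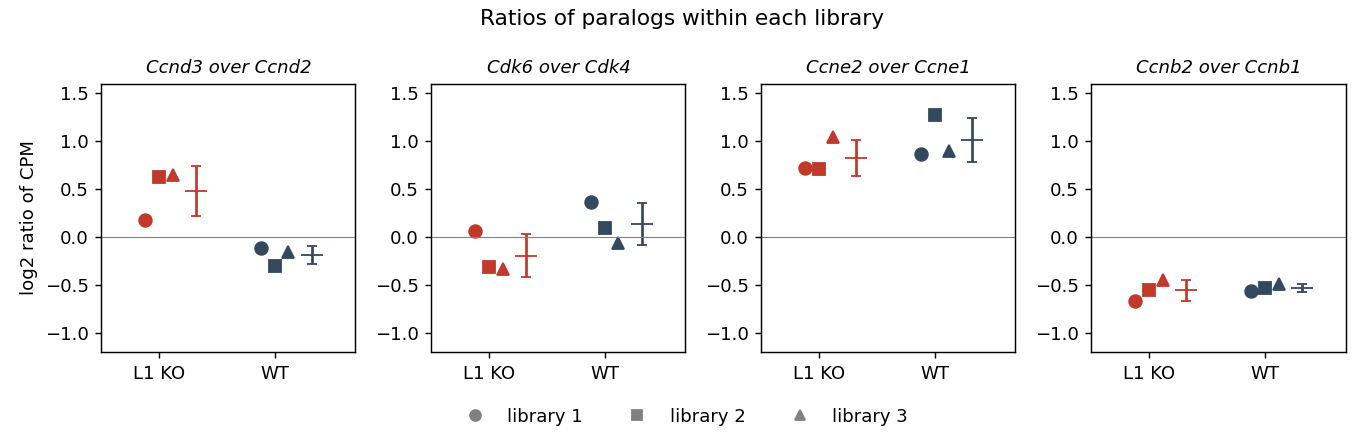
Log2 ratio of CPM of 4 pairs of paralogs within each library (vertical axis), L1 KO left and WT right, with the mean ± SD of 3 libraries beside the points. The Ccnd3 over Ccnd2 ratio separates the groups, while the other 3 pairs overlap.

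The kinases of the D-type cyclins also differed from each other. Cdk6 had 429, 342 and 329 CPM in KO 1 to 3, against 510.5, 443 and 398 CPM in WT 1 to 3. The groups overlapped, as KO 1 exceeded WT 3, yet each KO library was below the WT library of its own number, by 0.25, 0.37 and 0.28 on the log2 scale. The log2 fold change was −0.30 ± 0.12 with an adjusted p of 0.189, or 0.00273 with the block. Cdk4 had 411, 425 and 416 CPM in KO, against 395, 416 and 417 CPM in WT, and the groups overlapped almost completely. Its log2 fold change was 0.03 ± 0.06, with a 95% confidence interval of −0.11 to 0.17. Scaled by library size alone it was −0.0026, so that its sign depends on the scaling. The Cdk6 over Cdk4 ratio of CPM was 1.04, 0.805 and 0.791 in KO and 1.29, 1.06 and 0.957 in WT, with overlapping groups and an exact permutation p of 0.2, or 0.4 adjusted. That test does not use the library numbers; compared by number, the ratio was lower in KO in all 3 pairs, by a mean log2 difference of −0.33 ± 0.067 (SD, n = 3 pairs).

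The E-type cyclins had the lowest levels of the set. Ccne1 had 25.6, 30.4 and 30.3 CPM in KO 1 to 3, against 23.2, 19.1 and 25.6 CPM in WT 1 to 3. KO 1 lay just under WT 3, and the other KO libraries were above every WT library. The log2 fold change was 0.34 ± 0.12 with an adjusted p of 0.129, or 0.0345 with the block. Ccne2 had 42.1, 49.8 and 62.3 CPM in KO, against 42.3, 46.3 and 47.9 CPM in WT. KO 1 was the lowest of the 6 libraries and KO 3 the highest, so the groups overlapped. Its log2 fold change was 0.17 ± 0.13 with a 95% confidence interval of −0.13 to 0.47, and an adjusted p of 0.47, or 0.178 with the block. The Ccne2 over Ccne1 ratio of CPM had an exact permutation p of 0.3, or 0.4 adjusted. Cdk2, their kinase, chosen after its values were seen, had 106 ± 8.30 CPM in KO and 96.7 ± 6.84 CPM in WT, with an adjusted p of 0.363.

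The cyclins of S phase, G2 and mitosis and their kinase Cdk1 shared a pattern over the libraries. Ccnb1 had 112, 143 and 142 CPM in KO 1 to 3, against 95.4, 89.2 and 103 CPM in WT 1 to 3. All 3 KO libraries were above the WT libraries, KO 1 by the least. The means were 132 ± 17.6 CPM in KO and 96.0 ± 7.11 CPM in WT (SD, n = 3 each), a log2 fold change of 0.46 ± 0.10 with an adjusted p of 0.0384. Ccna2, the A-type cyclin of dividing body cells, had 197, 245 and 245 CPM in KO, against 169.6, 160.1 and 192 CPM in WT. These groups did not overlap, though KO 1 and WT 3 were close. The log2 fold change was 0.40 ± 0.10 with an adjusted p of 0.0615, or 0.0043 with the block. Ccna1, the germline A-type cyclin, had 0 reads in all 6 libraries.

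Ccnb2 had 70.5, 97.7 and 104 CPM in KO 1 to 3, against 64.4, 61.5 and 73.7 CPM in WT 1 to 3. KO 1 lay within the WT range and the other KO libraries lay above it. The log2 fold change was 0.44 ± 0.14 with an adjusted p of 0.117, or 0.0186 with the block. Cdk1, the kinase of mitotic entry, had 95.003, 125 and 124 CPM in KO, against 80.8, 86.6 and 95.1 CPM in WT. Here too KO 1 lay at the top of the WT range and did not clear it. The log2 fold change was 0.39 ± 0.11 with an adjusted p of 0.0854, or 0.002 with the block. The B-type cyclins kept nearly the same proportion to each other. Ccnb2 CPM was 0.629, 0.683 and 0.730 times Ccnb1 CPM in KO and 0.675, 0.689 and 0.712 times in WT, a difference of −0.03 on the log2 scale with an exact permutation p of 0.8.

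**Figure D3:**
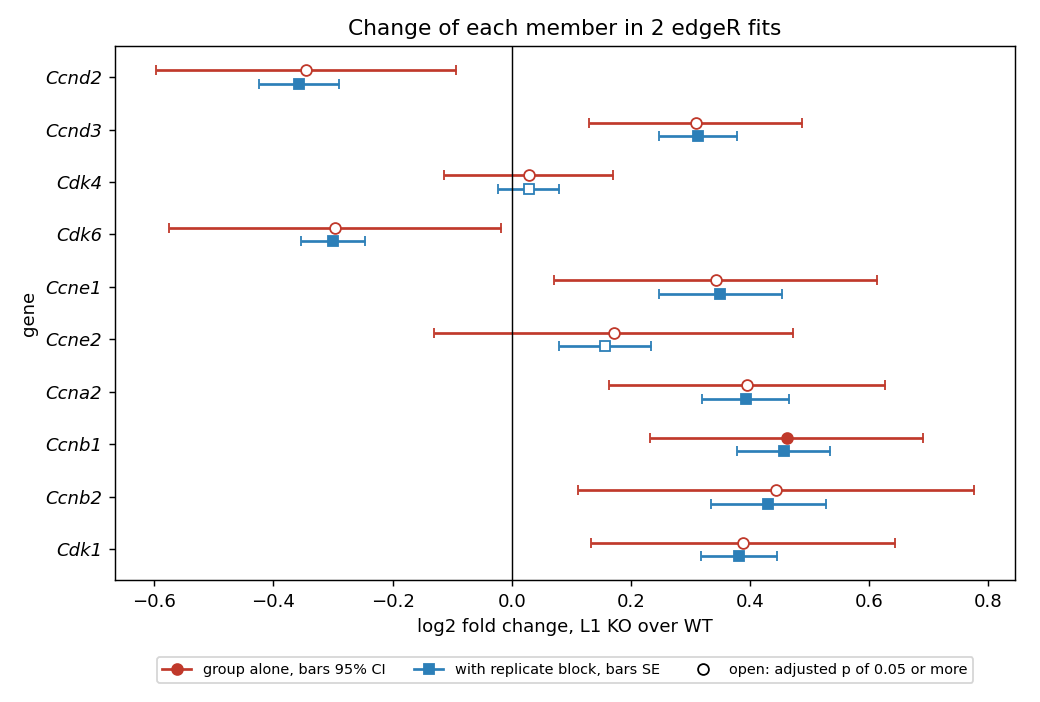
Log2 fold change of each member, L1 KO over WT (horizontal axis), in the edgeR fit on group alone (circles, 95% confidence intervals) and with the replicate number as a block (squares, SE); filled symbols have an adjusted p under 0.05. The estimates hardly move between the fits, while 1 member is filled without the block and 8 with it.

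The call for Ccnb1 did not hold when any library other than KO 1 was left out. Its log2 fold change stayed between 0.41 and 0.58 under all 14 alternatives, but its adjusted p was 0.0574 with limma-voom. It was 0.157 without KO 2, 0.135 without KO 3, 0.1002 without WT 1, 0.165 without WT 2 and 0.0670 without WT 3. In these fits with a library left out, the calls over all genes also fell, from 628 to between 109 and 415. When KO 1 was left out instead, 6 members were called higher and 2 lower, the same genes that passed under the block. Calls over all genes rose as well in that fit, from 628 to 2177, of which 1115 were higher and 1062 lower in KO. KO 1 was the KO library nearest to WT for Ccnd2, Ccnd3, Ccna2, Ccnb1, Ccnb2, Cdk1, Ccne1 and Cdk6. Its deviation from the KO mean was −0.23 for Ccnb1, −0.34 for Ccnb2 and −0.26 for Cdk1 on the log2 scale, and 0.27 for Ccnd2 and 0.24 for Cdk6.

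Compared by number, 8 of the 10 members had the same sign in all 3 KO minus WT differences, or 80% of them, against 54.2% of all tested genes. Number 1 gave the smallest difference for each of these 8. For Ccnb1 the differences were 0.23, 0.68 and 0.46 in numbers 1 to 3. For Ccnd2 they were −0.16, −0.49 and −0.43. The members with mixed signs were Ccne2, at −0.0096, 0.11 and 0.38, and Cdk4, at 0.06, 0.03 and −0.0015.

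**Figure D4:**
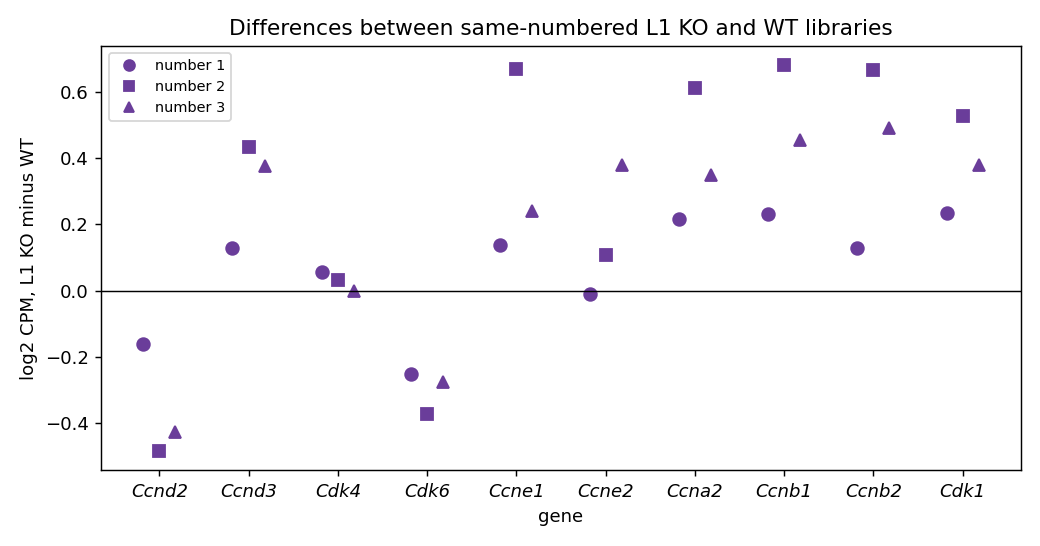
Difference in log2 CPM between the L1 KO and WT libraries of the same number (vertical axis) for each member, with the marker shape giving the number. Ccnd2 and Cdk6 lie below 0 in all 3 comparisons, 6 members lie above 0 in all 3, and number 1 lies nearest to 0 for these 8.

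Between genes, levels were set side by side per kilobase of annotated exons (RPKM, which is CPM divided by that length), since longer genes collect more reads. Cdk4 was highest at 128 ± 2.18 RPKM in KO and 126 ± 3.74 in WT. Ccnb2, at 59.2 ± 11.5 RPKM in KO and 43.4 ± 4.15 in WT, and Ccna2, at 56.0 ± 6.78 in KO and 42.6 ± 4.03 in WT, came next and did not differ from each other beyond their spread. In WT, Cdk6 (32.2 ± 4.03 RPKM), Ccnd2 (29.8 ± 1.44) and Ccnd3 (28.1 ± 2.75) followed within their spread, ahead of Ccnb1 (22.8 ± 1.69) and Cdk1 (17.7 ± 1.46). In KO the same places went to Ccnd3 (34.8 ± 0.853 RPKM), Ccnb1 (31.4 ± 4.18), Cdk6 (26.2 ± 3.88), Ccnd2 (23.5 ± 3.99) and Cdk1 (23.2 ± 3.43). The last 3 did not differ beyond their spread, nor did Ccnb1 from Ccnd3 or from Cdk6. In KO 1, Ccnb1 (26.6 RPKM) was below Cdk6 (30.7) and Ccnd2 (28.1). Ccne2, at 14.7 ± 2.92 RPKM in KO and 13.02 ± 0.816 in WT, and Ccne1, at 10.8 ± 1.04 in KO and 8.51 ± 1.24 in WT, were lowest. The lengths join the exons of all annotated isoforms, so genes with long untranslated regions or rare isoforms, such as Cdk6 with 13989 bases, may be understated.

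The direct partners of these complexes were read from a list of 21 regulators, of which 18 were tested. On group alone 1 passed, beside 4.57% of all tested genes in either direction. That gene was Cdc25b, the phosphatase that switches on Cdk1 at mitotic entry. It rose to 97.4 ± 9.33 CPM in KO, against 63.4 ± 3.16 CPM in WT, a log2 fold change of 0.62 ± 0.08 with an adjusted p of 0.00581. The median over these 18 was 0.19 on the log2 scale, with 15 positive against 48.8% of all tested genes. The 4 next smallest p-values belonged to the kinase-binding subunits Cks1b (0.33 ± 0.08) and Cks2 (0.40 ± 0.11), the phosphatase Cdc25c (0.49 ± 0.14) and the mitotic exit activator Cdc20 (0.43 ± 0.13), with adjusted p of 0.0571 to 0.0930. With the block 7 regulators rose and 0 fell, beside 9.96% of all tested genes higher and 10.3% lower. The 7 were Cdc25b, Cdc25c, Cks1b, Cks2, Pkmyt1 (adjusted p of 0.0273) and the inhibitors Cdkn1a and Cdkn2c. Cdc20 did not pass with the block (adjusted p of 0.0651).

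Inhibitors of cyclin-dependent kinases, named after their values were seen, did not pass on group alone. Cdkn1a, which encodes p21, had 68.7, 57.8 and 46.5 CPM in KO 1 to 3, against 60.3, 43.5 and 44.0 CPM in WT 1 to 3, with overlapping groups. Its log2 fold change was 0.23 ± 0.18 (adjusted p of 0.471, or 0.0428 with the block). Cdkn2c, which encodes the Cdk4 and Cdk6 inhibitor p18, had 0.37 ± 0.23 (adjusted p of 0.382, or 0.0471 with the block). Cdkn1b, which encodes p27, had −0.01 ± 0.14. Cdkn1c, Cdkn2a and Cdkn2b had too few reads to test.

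Of 31 further cyclins and cyclin-dependent kinases, 30 were in the table and 25 were tested. Their median log2 fold change was −0.02, with 1 higher and 1 lower, beside 2.14% and 2.43% of all tested genes. Ccng1, an atypical cyclin and textbook p53 target, had 187, 156 and 174 CPM in KO 1 to 3, against 78.1, 75.2 and 71.5 CPM in WT 1 to 3. It rose by 1.20 ± 0.08 on the log2 scale, or 2.30-fold, with an adjusted p of 8.95e-05, and no member of the main set changed as much. Ccng2, a related cyclin tied to cell cycle arrest, fell to 44.6 ± 0.813 CPM in KO, against 59.0 ± 3.70 CPM in WT, a log2 fold change of −0.40 ± 0.07 with an adjusted p of 0.0182. The next 4 by p did not pass: the splicing and transcription cyclins Ccnl1 (−0.21 ± 0.07) and Ccnl2 (−0.17 ± 0.06), Ccnk (0.20 ± 0.07), the partner of Cdk12 and Cdk13, and Cdk20 (−0.34 ± 0.12). With the block 3 of the 25 rose and 4 fell, beside 9.96% and 10.3% of all tested genes.

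**Figure D5:**
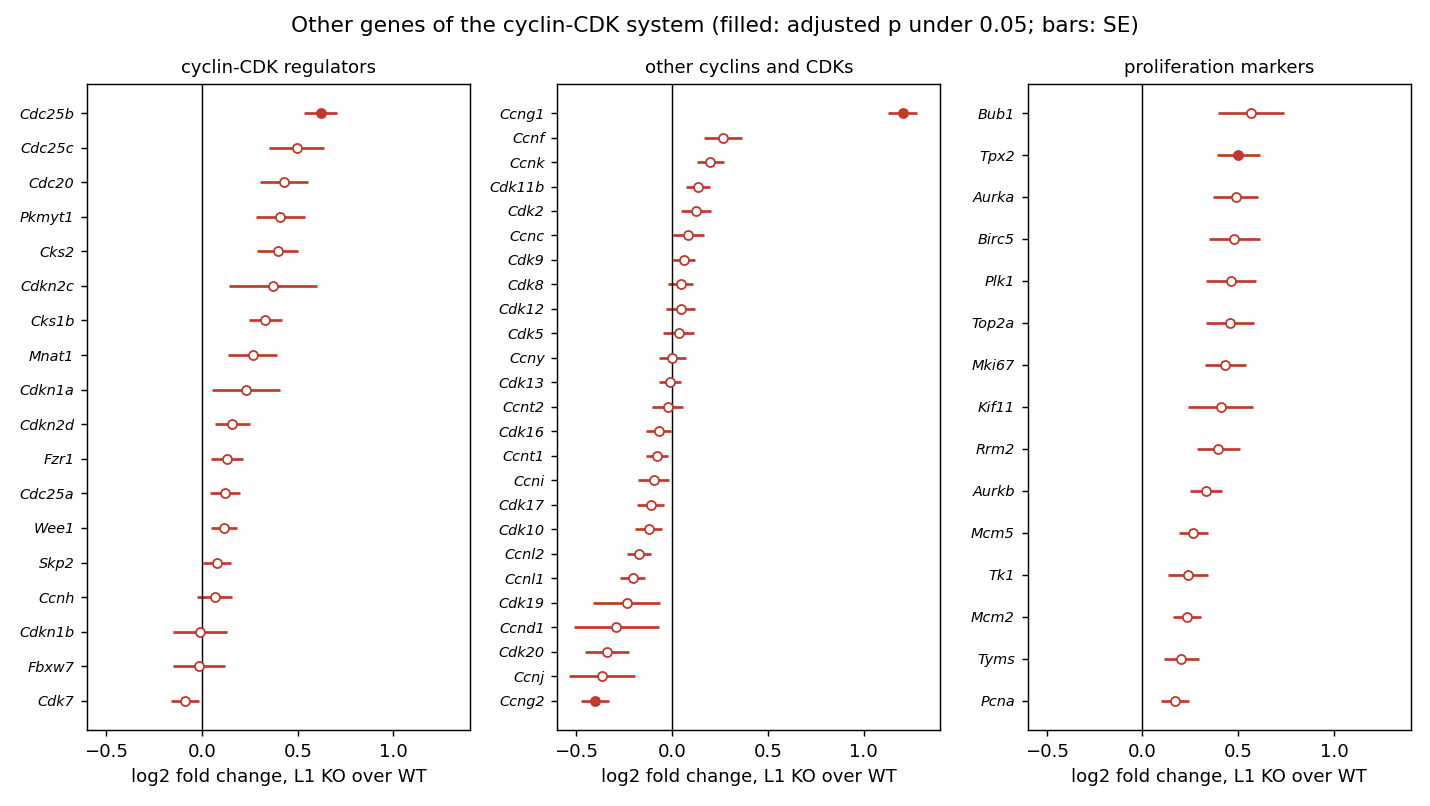
Log2 fold change, L1 KO over WT (horizontal axes, bars SE), of the tested genes of 3 lists: regulators of cyclin-CDK complexes, other cyclins and kinases, and proliferation markers outside the family. All 15 proliferation markers lie right of 0, the other cyclins scatter around 0, and Ccng1 stands farthest out at 1.20.

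Dividing-cell genes outside the family were read from a further list. All 15 proliferation markers were positive in log2 fold change (median 0.41), as were 48.8% of all tested genes. On group alone 1 marker passed, beside 4.57% of all tested genes in either direction. This was Tpx2, a spindle assembly factor, with 191 ± 27.8 CPM in KO, 135 ± 11.5 CPM in WT and a log2 fold change of 0.50 ± 0.11 (adjusted p of 0.0415). Mki67, which encodes the Ki-67 antigen, had 1071, 1254 and 1353 CPM in KO 1 to 3, against 918, 818 and 989.8 CPM in WT 1 to 3, with no overlap. Its log2 fold change was 0.43 ± 0.11 (adjusted p of 0.0537). The mitotic kinases Aurka and Aurkb had 0.49 ± 0.12 and 0.33 ± 0.08, and Top2a, a topoisomerase, 0.46 ± 0.12. Most genes of DNA replication and nucleotide supply, named after their values were seen, had smaller values, at 0.17 ± 0.07 for Pcna, 0.20 ± 0.09 for Tyms, 0.23 ± 0.07 for Mcm2, 0.24 ± 0.10 for Tk1 and 0.27 ± 0.08 for Mcm5. Rrm2, also of nucleotide supply, did not, at 0.40 ± 0.11, above the value for Aurkb. With the block 14 of the 15 rose, beside 9.96% of all tested genes. Without both number 1 libraries 13 rose, where 2881 genes passed, 1448 of them higher and 1433 lower. In bulk RNA, fewer cells of a type and less RNA per cell cannot be told apart, and so neither can more dividing cells and more cyclin RNA in each.

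The mean profile of Ccna2, Ccnb1, Ccnb2 and Cdk1 over the 6 libraries was compared with 9268 other genes by the root mean square difference of log2 CPM, each gene centred on its own mean. Among the 5 nearest were Kntc1, a kinetochore gene (0.031), Cit, which encodes the cytokinesis kinase citron (0.033), Polq, a DNA polymerase of end joining (0.035), and Slc39a8, a metal ion transporter gene (0.036). The 4 cyclin and kinase genes themselves lay 0.032 to 0.048 from their mean profile. Kntc1, as the nearest, had 91.5, 123 and 119 CPM in KO 1 to 3, against 76.5, 77.2 and 88.7 CPM in WT 1 to 3.

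Markers of beta-selected thymocytes, dividing cells that a CD25 gate can hold, moved with these genes in part. Of 8 such markers 3 rose, Cd28 (0.28 ± 0.07), Slc3a2 (0.41 ± 0.08) and Slc7a5 (0.38 ± 0.07), beside 2.14% of all tested genes. Negative values were found for Cd27 (−0.20 ± 0.08), Nr4a1 (−0.35 ± 0.32) and Egr1 (−0.05 ± 0.32). With the block 4 of the 8 rose and 1, Cd27, fell, beside 9.96% and 10.3% of all tested genes. The summed level of the 8 was 855 to 960.0 CPM in KO and 813 to 896 CPM in WT. The part of these and the following cells in the cyclin values was not tested. Markers of other cells differed in level, and some moved with genotype. Dendritic and erythroid genes were low, while the NK and stromal sums reached the levels of some members. B lineage genes summed to 23.7 to 27.0 CPM in KO and 30.5 to 33.0 CPM in WT, nearly all from Cd79b, which fell (−0.35 ± 0.08, adjusted p of 0.0462), with Ms4a1 and Pax5 at 0. Myeloid genes summed to 24.6 to 31.2 CPM in KO and 24.1 to 29.5 CPM in WT, and 3 erythroid genes to 0.146 to 2.14 CPM in KO and 1.93 to 4.29 CPM in WT. Dendritic genes summed to 4.12 to 5.56 CPM in KO and 8.09 to 10.2 CPM in WT. Of the 4 tested, Cd74 (−1.64 ± 0.28, adjusted p of 0.0172) and H2-Eb1 (−1.89 ± 0.41, adjusted p of 0.0340) fell, beside 2.43% of all tested genes. With the block all 4 fell, beside 10.3%. NK genes summed to 161 to 201 CPM in KO and 114 to 158 CPM in WT, nearly all from Gzma, with Ncr1 at 0. Stromal genes summed to 116 to 137 CPM in KO and 102 to 123 CPM in WT, mostly from Pdgfrb, which rose (0.67 ± 0.15, adjusted p of 0.0462), and Epcam, which fell (−0.75 ± 0.11, adjusted p of 0.010005), and Col1a2 and Krt5 were near 0.

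Several members overlap a gene on the opposite strand, and the strand setting of the counting is not given in the sources used here, so reads in the shared bases cannot be assigned with certainty. Ccnd3 overlaps Bysl, a ribosome assembly gene, which rose by 0.32 ± 0.06 on the log2 scale (adjusted p of 0.0224). Ccna2 overlaps Exosc9, an RNA exosome gene, at 0.36 ± 0.10 (adjusted p of 0.0713). Ccne2 overlaps Ints8 (0.14 ± 0.08) and Cdk4 overlaps Tspan31 (−0.19 ± 0.10). Cdk6 overlaps the antisense gene Gm17590, whose levels followed those of Cdk6 at 39.8, 31.2 and 32.05 CPM in KO 1 to 3, against 52.6, 40.1 and 37.3 CPM in WT 1 to 3. Of genes named as pseudogene copies, Ccnb2-ps had 531 reads over all libraries together and Ccnd3-ps had 0.

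The members lie apart on GRCm38, with Cdk1 (10:69335146-69352938, minus strand) and Cdk4 (10:127063534-127067920, plus strand) sharing a chromosome. Ccnb1 lies on chromosome 13 from 100778650 to 100786570, Ccnd3 on chromosome 17 from 47505051 to 47599691, Ccnd2 on chromosome 6 from 127125162 to 127152193 and Cdk6 on chromosome 5 from 3341485 to 3531008.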

How the data were processed

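The deposited file is a single table of raw counts for each gene symbol. Per the submitters' processing notes, TopHat2, HTSeq and GRCm38 were used; their versions, the annotation and the strand setting are not given. Column names with Ctrl were matched to WT titles by number. The 5 summary rows of the counting tool stayed out of library sizes and tests; the row for reads outside any feature held 50.4% to 51.9% of each library's total.

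The count test was run with edgeR 4.0.16 in R 4.3.3: filterByExpr (minimum count 10, minimum total 15), TMM scaling, estimateDisp, a robust glmQLFit and its two-sided F test over all genes, with Benjamini-Hochberg adjustment at 0.05. The SE is that implied by the F statistic. CPM are TMM-normalised. The test was checked on simulated data with the same dispersion for every gene and no difference of number 1 from the rest. That check therefore does not cover the split seen in these libraries. limma 3.58.1 (voom) and DESeq2 1.42.0 were alternatives. Coordinates and lengths come from GENCODE M21 (GRCm38). Reads carry no molecular identifiers and are not independent molecules.

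Titles number the libraries 1 to 3 in each group. Deviations of same-numbered libraries correlated at 0.60, 0.20 and 0.39, all over the 0.1 set for treating numbers as pairs, although the labels name no litter, batch or day. Because deviations cancel out within a group, the positive value for number 1 alone pushes those among numbers 2 and 3 upward. Values over 0.1 for numbers 2 and 3 are thus no separate sign of pairing. The p-values with the block rest on a pairing that the labels do not give. KO 2 with WT 3 and KO 3 with WT 2 gave 0.27 and 0.34, so KO 2 was closer to WT 3 than to WT 2, and apart from the split of number 1 from the rest the numbers are not clearly matched. No 2 libraries agreed within sampling noise: chi-square per gene was 4.59 or more for every pair.

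The members and lists were chosen with earlier results of these data known. Genes named by rule are the members, Rpl22l1, those of the regulators, other cyclins and kinases and proliferation markers that passed, the 4 next by p in each of these lists, and the 5 nearest profiles. Cell type markers and genes overlapping a member fall outside that rule and were named with their values seen. Of the genes nearest in profile to the mitotic members, 1 is not reported here.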

Additional observations from a re-analysis of the deposited data

How the results depend on the processing

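Over all genes, the regulators, the other cyclins and kinases and the proliferation markers, 628, 1, 2 and 1 genes passed on group alone, and 1 member did. With no count filter 1037 genes passed, with 3 members, 4 regulators and 7 proliferation markers. DESeq2 called 1192 genes, 6 members, 6 regulators and 11 proliferation markers. With limma-voom 0 members and 0 proliferation markers passed, though 8 and 13 had an unadjusted p under 0.05. With the replicate block 2785 genes, 8 members, 7 regulators, 7 other cyclins and kinases and 14 proliferation markers passed. Leaving out 1 library at a time gave 109 to 2177 genes, 0 to 8 members, 1 to 7 regulators, 1 to 4 other cyclins and kinases and 0 to 14 proliferation markers; at an unadjusted p under 0.05 these fits had 4 to 9 members and 11 to 15 proliferation markers, and the lowest count of genes was without WT 2 and the highest without KO 1. Leaving out KO 1 and WT 1 together, a choice made after seeing the data, gave 2881 genes, 8 members, 6 regulators, 6 other cyclins and kinases and 13 proliferation markers. The cause was not tested. For the 4 paralog ratios the differences of 0.67, −0.33, −0.19 and −0.03 are equal with and without the pairing by arithmetic, which says nothing about the block. Leaving out 1 library moved them over 0.59 to 0.82 for Ccnd3 over Ccnd2, −0.46 to −0.21 for Cdk6 over Cdk4, −0.30 to −0.06 for Ccne2 over Ccne1 and −0.08 to 0.03 for Ccnb2 over Ccnb1. The Cdk4 log2 fold change of 0.03 was −0.0026 when scaled by library size alone; no other member changed sign under any of the 14 alternatives.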
